A study of Homo sapiens with 15 samples.

Results

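DPPA2, DPPA4 and TRIML2 are genes of the early embryo and of germ cells whose RNA was measured here in ovarian cancer cells treated with decitabine, PXD101 or both. They were chosen because their levels rose with decitabine and further with both drugs, and every probe set that the platform's annotation pairs with one of these symbols alone is described. The 3 genes, of 19775 with a probe set of their own, have 5 of the 54613 probe sets analysed, 1 for DPPA2, 3 for DPPA4 and 1 for TRIML2. A probe set is a group of short probes whose brightness is summarised into a single value, given here on the log2 scale, so that a difference of 1 is a change of 2-fold.

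DPPA2 and DPPA4 (developmental pluripotency associated) are paralogous neighbours that encode nuclear proteins with a SAP domain, a fold that binds DNA. They are present in pluripotent cells and in the germline and are silent in most adult tissues. In mouse cells the pair binds chromatin together and switches on genes of the earliest embryonic transcription. TRIML2 encodes a protein of the tripartite motif family with a SPRY domain, which in related proteins binds other proteins, and it lies beside ZFP42 (also called REX1), a zinc finger gene long used as a marker of pluripotent cells.

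The study asked which genes change in a cisplatin-resistant line when DNA methylation and histone deacetylation are inhibited. CP70 is a cisplatin-resistant derivative of the ovarian cancer line A2780, and all 4 CP70 groups come from that derivative. CP70 was given both drugs (decitabine at 0.1 µM over 48 h, with PXD101 at 0.1 µM over 24 h, added after the first 24 h), decitabine alone or PXD101 alone (each 0.1 µM over 48 h) or no drug, and A2780 was untreated. Decitabine, a cytidine analog, is built into DNA and depletes DNA methyltransferases there, and PXD101 (belinostat) inhibits histone deacetylases. Harvest followed drug removal by 96 h, and PXD101 was present for longer alone than in the combination. Each group had 3 arrays, which the series describes as biological triplicates. Each line is a single line, so lines and their histories cannot be told apart.

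The array medians lay between 5.00 and 5.05 log2 and the lower quartiles between 3.70 and 3.76. Arrays of a group correlated at 0.991 to 0.997, except in untreated CP70, where replicate 2 correlated at 0.984 to 0.986 with replicates 1 and 3. The gap between the 3' and 5' actin probe sets, a sign of RNA quality, was 0.424 to 0.491 log2 with both drugs, 0.342 to 0.787 with decitabine, 0.384 to 0.509 with PXD101, 0.629 to 0.859 in untreated CP70 and 0.337 to 0.377 in A2780. It was thus lower with both drugs, with PXD101 and in A2780 than in untreated CP70, and it overlapped between both drugs and decitabine and between decitabine and untreated CP70. Its part in the results was not tested. Of 8 ovarian epithelial markers, WT1, CDH1 and MUC16 lay below the array median in every group. KRT18 stood at 10.60 with both drugs, 10.52 with decitabine and 9.56 in untreated CP70, KRT8 at 8.29, 8.05 and 6.68 in the same groups, EPCAM at 8.06, 7.95 and 7.24, PAX8 at 7.25, 7.30 and 7.28, and KRT7 at 6.11, 6.22 and 6.11. The fibroblast markers DCN, COL1A2 and LUM were as high as these, at 9.43, 7.86 and 7.96 with both drugs, 9.57, 7.90 and 7.92 with decitabine, and 9.98, 8.62 and 7.75 in untreated CP70. KRT18, KRT8 and EPCAM were thus higher in the groups with decitabine, and their part in the results was not tested. All 3 leukocyte markers were below the median in every group (3.76 to 4.82). In bulk cells, more cells with a transcript and more transcript per cell cannot be told apart.

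DPPA2, probe set 240301_at, lay at 6.76, 6.98 and 6.56 log2 with both drugs, 5.89, 5.95 and 5.88 with decitabine, 4.51, 4.43 and 4.57 with PXD101, 4.44, 4.61 and 4.56 in untreated CP70, and 4.08, 4.23 and 3.88 in A2780. All arrays with both drugs lay above all arrays with decitabine, which lay above all others. The group means were 6.77 ± 0.21 with both drugs, 5.91 ± 0.04 with decitabine, 4.50 ± 0.07 with PXD101, 4.53 ± 0.08 in untreated CP70 and 4.06 ± 0.18 in A2780 (SD, n = 3 each). On the scale of the array these means ranked above 69.8%, 61.1%, 41.6%, 42.2% and 32.7% of all probe sets in the same order of groups. DPPA2 thus lay above the median probe set with both drugs or decitabine, and below it in the other groups.

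The mean with both drugs exceeded that of untreated CP70 by 2.23 ± 0.11 (SE), or 4.71-fold, and the mean with decitabine exceeded it by 1.37 ± 0.11, or 2.59-fold. Both drugs exceeded decitabine by 0.86 ± 0.11, or 1.82-fold, and the lowest array with both drugs stood 0.62 above the highest with decitabine. These differences chose the gene, so they are given as a description without a test. In the same fit limma called 7.02% of all probe sets between both drugs and untreated CP70, 5.56% between decitabine and untreated CP70, and 2 probe sets (0.00366%) between both drugs and decitabine, where 3019 had an unadjusted p under 0.05. These counts take in all probe sets, those of the 3 genes included. The genes were picked on these contrasts, so no call is given for them. In size of rise, of the 54613 probe sets, DPPA2 ranked 10 for both drugs over decitabine.

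**Figure D1:**
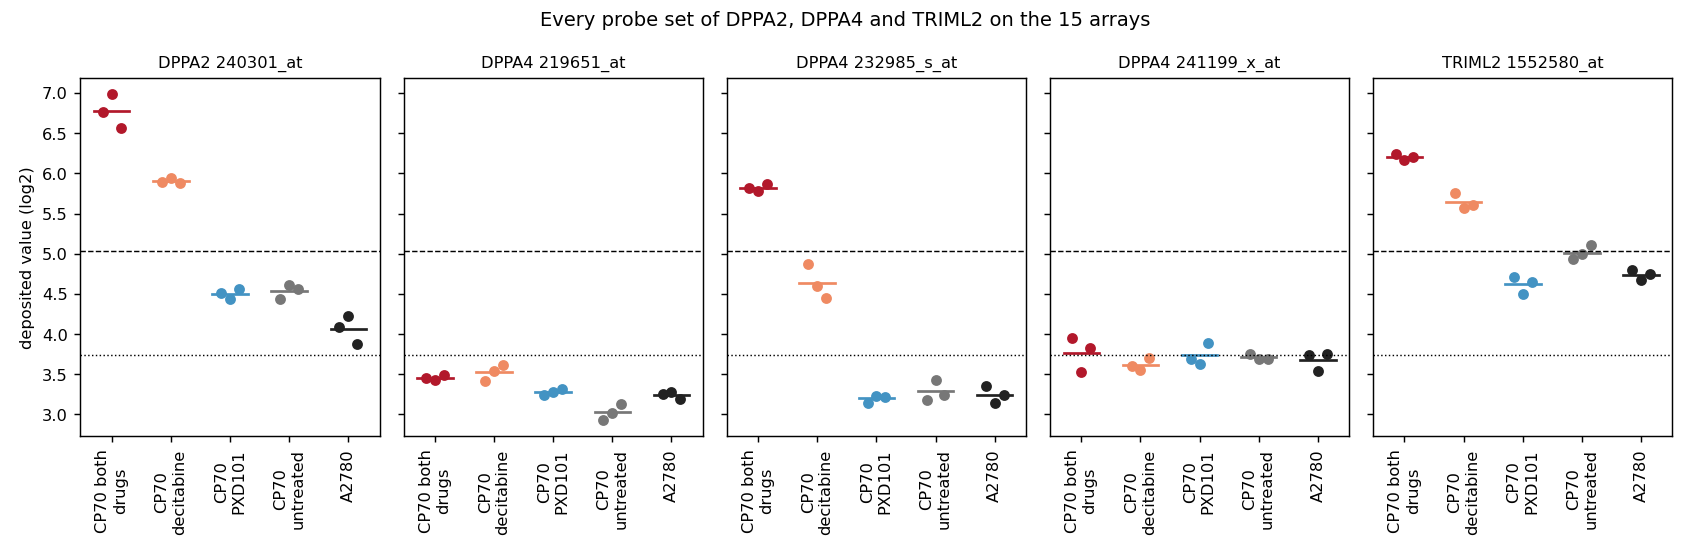
Deposited log2 value (vertical axis) of the 5 probe sets of DPPA2, DPPA4 and TRIML2 on each of the 15 arrays, by group from both drugs on the left to A2780 on the right. Points are arrays and bars are group means. DPPA2, TRIML2 and DPPA4 probe set 232985_s_at form a staircase with both drugs on top and decitabine next, while the other DPPA4 probe sets stay between 2.93 and 3.96.

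The bases before the RefSeq start of DPPA2 and DPPA4 are printed here because the genes were chosen for a shared rise. A further reason is that decitabine acts on the methylation of CG pairs, which stand in capitals. Both genes lie on the minus strand of chromosome 3 in GRCh38.p14, DPPA2 at chr3:109293788-109316517 and DPPA4 at chr3:109326144-109339636, 9.627 kb apart. Each window holds 250 bases, 5′ to 3′ on the gene's strand, from the RefSeq promoter table, and covers chr3:109316518-109316767 for DPPA2 and chr3:109337547-109337796 for DPPA4. The RefSeq start used for DPPA4 lies inside the span of the gene.
DPPA2: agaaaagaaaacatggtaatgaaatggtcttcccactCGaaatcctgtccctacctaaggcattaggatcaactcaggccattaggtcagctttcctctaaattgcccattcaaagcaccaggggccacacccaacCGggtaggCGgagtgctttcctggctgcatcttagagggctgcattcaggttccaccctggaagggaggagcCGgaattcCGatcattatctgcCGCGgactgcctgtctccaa
DPPA4: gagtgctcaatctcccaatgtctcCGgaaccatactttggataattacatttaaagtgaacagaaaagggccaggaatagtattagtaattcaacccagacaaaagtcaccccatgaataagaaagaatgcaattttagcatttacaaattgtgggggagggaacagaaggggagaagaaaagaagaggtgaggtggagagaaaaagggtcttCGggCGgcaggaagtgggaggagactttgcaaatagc
The DPPA2 window holds 7 CG pairs and 52.0% G and C, and the DPPA4 window holds 3 CG pairs and 43.2% G and C. Over 35116 such windows of 27305 genes the median was 11 CG pairs, with quartiles of 3 and 23. Thus 43.7% of windows had as few CG pairs as DPPA2 and 29.3% as few as DPPA4, and both lie below the median. The arrays did not measure methylation.

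DPPA4 was read by 3 probe sets that did not show the same pattern. Probe set 232985_s_at, whose suffix marks probes that can match several transcripts, lay at 5.81, 5.78 and 5.86 log2 with both drugs, 4.87, 4.60 and 4.45 with decitabine, 3.15, 3.24 and 3.22 with PXD101, 3.19, 3.42 and 3.25 in untreated CP70, and 3.36, 3.14 and 3.24 in A2780. The 3 arrays with both drugs stood at least 0.90 above the highest array with decitabine, and PXD101, untreated CP70 and A2780 overlapped. The group means were 5.82 ± 0.04 with both drugs, 4.64 ± 0.21 with decitabine, 3.20 ± 0.05 with PXD101, 3.29 ± 0.12 in untreated CP70 and 3.25 ± 0.11 in A2780 (SD, n = 3 each). Without decitabine these means ranked above only 9.88% to 12.4% of all probe sets, below the lower quartile of every array, whereas the means with both drugs and with decitabine ranked above 59.9% and 43.4%. Because the low values lie near the bottom of the scale, folds against them can be understated.

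On that probe set, both drugs exceeded untreated CP70 by 2.53 ± 0.11 (SE), or 5.79-fold, and decitabine exceeded it by 1.36 ± 0.11, or 2.56-fold. The rise with decitabine was close to that of DPPA2 (1.37), and the further step from decitabine to both drugs was 1.18 ± 0.11, or 2.26-fold, rank 2 of 54613 probe sets in size of rise. The replicates with decitabine spread more (SD 0.21) than those with both drugs (SD 0.04).

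Probe set 219651_at of DPPA4 lay at 3.45, 3.43 and 3.49 log2 with both drugs, 3.42, 3.54 and 3.61 with decitabine, 3.24, 3.28 and 3.32 with PXD101, 2.93, 3.02 and 3.14 in untreated CP70, and 3.26, 3.28 and 3.20 in A2780. Both drugs and decitabine overlapped, and all 6 of their arrays lay above the other 9. Its mean exceeded that of untreated CP70 by 0.43 with both drugs (1.35-fold) and by 0.49 with decitabine (1.41-fold), and both drugs differed from decitabine by -0.07 ± 0.08 (SE). The third DPPA4 probe set, 241199_x_at, whose suffix marks probes that may bind unrelated transcripts, lay at 3.96, 3.53 and 3.82 with both drugs, 3.61, 3.55 and 3.70 with decitabine, 3.69, 3.63 and 3.88 with PXD101, 3.75, 3.69 and 3.69 in untreated CP70, and 3.75, 3.54 and 3.76 in A2780. All 5 groups overlapped on it. Averaged over the 3 probe sets, DPPA4 exceeded untreated CP70 by 1.01 with both drugs and by 0.59 with decitabine, and both drugs exceeded decitabine by 0.42. The further rise of DPPA4 was thus seen on a single probe set, and which transcripts each of the 3 reads was not tested.

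TRIML2 lies on the minus strand of chromosome 4 at chr4:188091272-188109603 (GRCh38.p14), and RefSeq gives it starts in 2 places. Their 250-base windows, printed for the same reason as those of DPPA2 and DPPA4 with CG pairs in capitals, cover chr4:188109604-188109853 (window 1) and chr4:188105588-188105837 (window 2).
TRIML2 window 1: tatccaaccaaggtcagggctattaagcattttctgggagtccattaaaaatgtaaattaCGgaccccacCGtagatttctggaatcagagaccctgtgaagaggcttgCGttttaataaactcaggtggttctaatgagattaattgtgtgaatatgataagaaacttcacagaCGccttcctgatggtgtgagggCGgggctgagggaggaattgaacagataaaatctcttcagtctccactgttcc
TRIML2 window 2: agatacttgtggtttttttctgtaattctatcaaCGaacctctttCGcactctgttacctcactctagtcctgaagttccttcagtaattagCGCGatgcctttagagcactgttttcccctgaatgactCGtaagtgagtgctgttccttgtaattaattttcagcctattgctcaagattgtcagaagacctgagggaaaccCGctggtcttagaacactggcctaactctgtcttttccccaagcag
They hold 5 and 6 CG pairs with 43.2% and 43.6% G and C, and 38.1% and 41.1% of all windows had as few CG pairs. All 4 windows of the 3 genes thus lie below the median of 11. Of 5 short motifs searched on both strands, GGGCGG, a GC box, occurs in the DPPA4 window and in TRIML2 window 1, as in 42.6% of all windows, and overlaps a CG pair by its own letters. CCAAT occurs in the DPPA4 window, as in 32.0% of all, and TATAAA (10.7% of all windows), CACGTG (6.34%) and TTCCCGC (5.52%) occur in none of the 4.

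**Figure D2:**
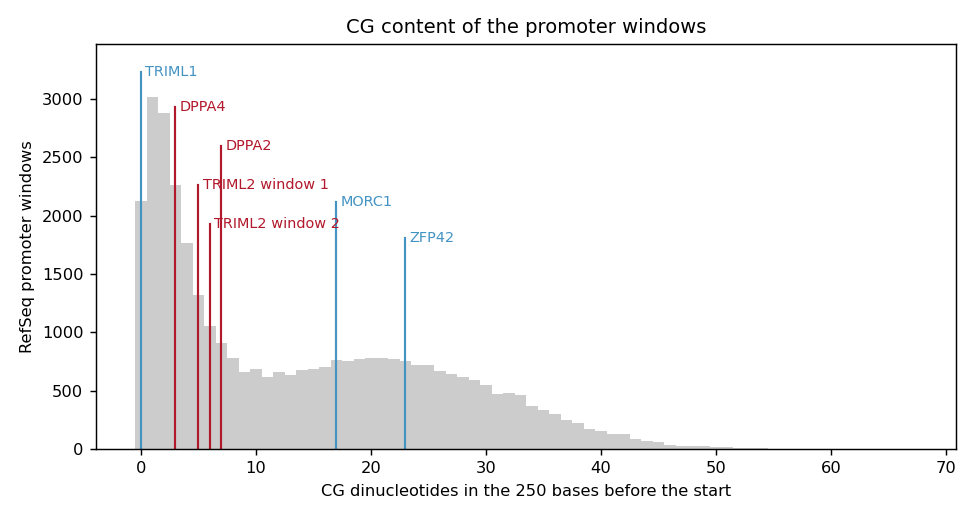
Number of RefSeq promoter windows of 250 bases (vertical axis) by their count of CG pairs (horizontal axis), with the windows of DPPA2, DPPA4 and TRIML2 (red) and of TRIML1, MORC1 and ZFP42 (blue) marked. The 4 windows of the 3 genes hold 3 to 7 CG pairs, below the median of 11.

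TRIML2, probe set 1552580_at, lay at 6.24, 6.16 and 6.20 log2 with both drugs, 5.75, 5.57 and 5.61 with decitabine, 4.71, 4.50 and 4.65 with PXD101, 4.93, 5.00 and 5.11 in untreated CP70, and 4.79, 4.68 and 4.75 in A2780. The arrays with both drugs stood at least 0.41 above those with decitabine, which stood above all others. Its means were 6.20 ± 0.04 with both drugs, 5.64 ± 0.10 with decitabine, 4.62 ± 0.11 with PXD101, 5.01 ± 0.09 in untreated CP70 and 4.74 ± 0.06 in A2780 (SD, n = 3 each). They ranked above 64.2%, 57.9%, 43.7%, 49.8% and 45.6% of all probe sets in that order of groups. TRIML2 therefore started near the array median in untreated CP70, where its level was higher than in the other groups without decitabine.

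Its mean exceeded that of untreated CP70 by 1.19 ± 0.09 with both drugs (2.28-fold) and by 0.63 ± 0.09 with decitabine (1.55-fold), and both drugs exceeded decitabine by 0.56 ± 0.09 (1.47-fold). The step from decitabine to both drugs ranked 198 among all probe sets, below those of DPPA2 and of DPPA4 probe set 232985_s_at but above that of the mean of the DPPA4 probe sets (0.42), and was close in size to the step from untreated CP70 to decitabine. Against A2780, the mean with both drugs was higher by 2.70 for DPPA2, 2.57 for DPPA4 (232985_s_at) and 1.46 for TRIML2, and the mean with decitabine by 1.84, 1.40 and 0.90.

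**Figure D3:**
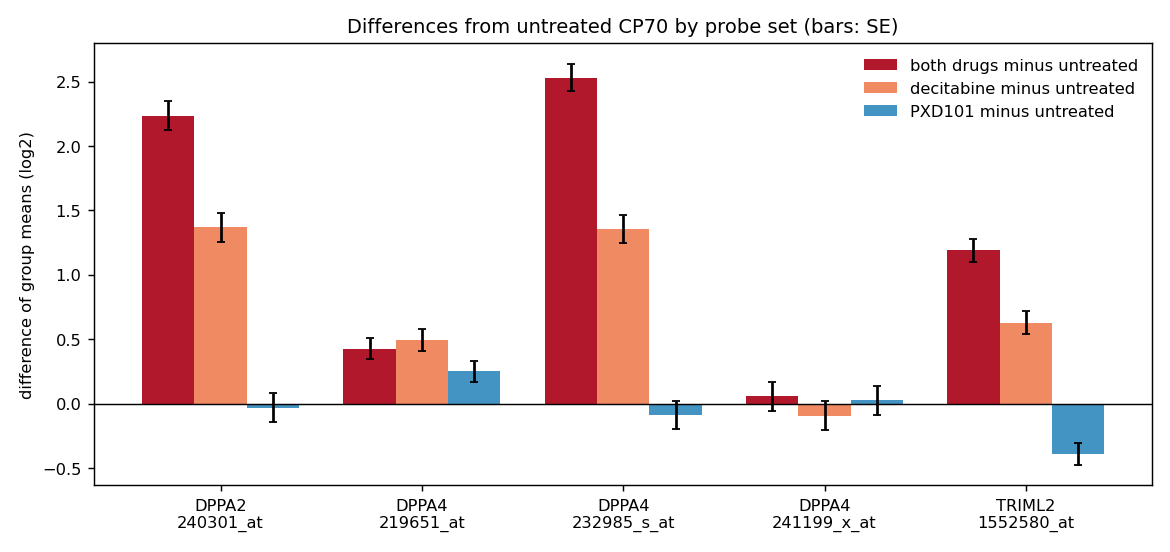
Differences of group means from untreated CP70 (log2, bars) with standard errors (lines) for both drugs, decitabine and PXD101, for the 5 probe sets of DPPA2, DPPA4 and TRIML2. The bars of DPPA2, TRIML2 and DPPA4 probe set 232985_s_at are tallest with both drugs (2.23, 1.19 and 2.53) and lie at or below 0 with PXD101.

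PXD101 alone was compared with untreated CP70 to see whether the deacetylase inhibitor moved these genes without decitabine. The choice of the genes did not use this contrast but may have used the untreated CP70 arrays. Their p-values here are therefore not independent of that choice. Limma called 5.92% of all probe sets in this comparison (3235), a count that was 10973 without CP70 replicate 2 and 0 without any 1 of the other 5 arrays (7826 to 10849 at an unadjusted p under 0.05). DPPA2 was at 4.50 with PXD101 and 4.53 in untreated CP70, a difference of -0.03 ± 0.11 (SE; 95% interval -0.27 to 0.21; limma adjusted p = 0.92). DPPA4 probe set 232985_s_at differed by -0.09 ± 0.11 (95% interval -0.32 to 0.15; adjusted p = 0.725), 241199_x_at by 0.02 ± 0.11 (adjusted p = 0.94) and 219651_at by 0.25 ± 0.08 (adjusted p = 0.0847). Both means of 232985_s_at lay near the bottom of the scale, where a small change could not show.

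TRIML2 was lower with PXD101, at 4.62 against 5.01 in untreated CP70, a difference of -0.39 ± 0.09 (limma adjusted p = 0.0289), with all 3 PXD101 arrays below all 3 untreated arrays. This call was lost without any 1 of the 6 arrays other than CP70 replicate 2 (adjusted p = 0.0767 to 0.166), and rank product did not make it. Without CP70 replicate 2 the adjusted p was 0.00974. CP70 replicate 2 correlated at 0.995 with the PXD101 arrays, and set against that single untreated array the difference was -0.38, close to -0.39 (adjusted p = 0.88, with 1 array in that group and the spread taken from the other groups). The response to both drugs exceeded the sum of the responses to each drug by 0.90 log2 for DPPA2, 1.26 for DPPA4 (232985_s_at) and 0.95 for TRIML2, and by -0.32 and 0.13 for 219651_at and 241199_x_at. That excess uses the arrays that chose the genes and the exposures to PXD101 differed in length, so it is a description only.

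Untreated CP70 was compared with A2780 to see whether the genes already differed between the resistant line and its parent. The untreated CP70 arrays may have entered the choice of the genes, so the p-values of these genes are not independent of it. Limma called 24.0% of all probe sets. DPPA2 was higher in untreated CP70, at 4.53 against 4.06 in A2780, by 0.47 ± 0.11 (SE; adjusted p = 0.00578, and 0.00459 to 0.0356 without any 1 of the 6 arrays). Rank product did not call it (0.444, against a threshold of 0.05). TRIML2 was also higher, at 5.01 against 4.74 in A2780, by 0.27 ± 0.09 (adjusted p = 0.0336). That call was lost without A2780 replicate 2 (adjusted p = 0.119), A2780 replicate 3 (0.0728) or CP70 replicate 3 (0.146), and rank product did not make it. The 3 DPPA4 probe sets differed by -0.21 ± 0.08 (219651_at, adjusted p = 0.0814), 0.04 ± 0.11 (232985_s_at, 0.859) and 0.03 ± 0.11 (241199_x_at, 0.896).

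The PXD101 arrays, none of which the choice of genes used, were also set against A2780, where limma called 16.6% of all probe sets. DPPA2 was at 4.50 with PXD101 and 4.06 in A2780, higher by 0.44 ± 0.11 (SE; adjusted p = 0.0123). The call was lost without A2780 replicate 3 (adjusted p = 0.0716) or PXD101 replicate 3 (0.0535), and rank product did not make it. TRIML2 differed by -0.12 ± 0.09 (adjusted p = 0.48) and the DPPA4 probe sets by -0.05 to 0.06 (adjusted p = 0.836 to 0.866). These comparisons share arrays, since untreated CP70 and PXD101-treated CP70 are each used in more than 1 of them. In the order of group means for DPPA2, untreated CP70 and PXD101 did not differ beyond their spread, and A2780 was lowest.

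The genes on either side were examined to see whether the rise reached beyond the 3 genes. Of the 5 nearest protein-coding genes on each side of the DPPA2 and DPPA4 pair (RETNLB, TRAT1, GUCA1C, MORC1, C3orf85, NECTIN3, CD96, ZBED2, PLCXD2 and PHLDB2), all 10 were measured. Limma called 0 of them with both drugs, with decitabine or with PXD101 against untreated CP70 (also 0 at an unadjusted p under 0.05) and 0 between both drugs and decitabine (1 lower at an unadjusted p). The shares over all genes were 5.52% higher and 3.59% lower with both drugs and 4.38% and 2.66% with decitabine. A count of 0 of 10 is near these shares, so it cannot show whether the rise was limited to the pair. The nearest neighbour on each side is also distant, C3orf85 at 142 kb from DPPA2 and NECTIN3 at 1732 kb from DPPA4. MORC1, a gene of the male germline that represses transposons in mouse, differed by -0.12 with both drugs (adjusted p = 0.555) and its group means stayed between 2.84 and 2.96. NECTIN3, a cell adhesion receptor, was higher in untreated CP70 than in A2780 by 2.03 (adjusted p = 9.53e-08).

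Beside TRIML2, 6 of 9 neighbouring genes were measured (KLKB1, F11, MTNR1A, FAT1, ZFP42 and TRIML1). FRG1, FRG2 and DUX4 had no probe set of their own and were not analysed here. Limma called 1 of the 6 higher and 0 lower with both drugs, and the same with decitabine (3 higher at an unadjusted p under 0.05 in each). Over all genes 5.52% were higher with both drugs and 4.38% with decitabine. ZFP42, 86.026 kb away, was the neighbour called in both, and FAT1 lies a further 1269 kb away, beyond ZFP42. KLKB1 differed from untreated CP70 by 0.27 with both drugs (limma adjusted p = 0.23) and by 0.35 with decitabine (0.125). The brightest probe set of ZFP42, 1554776_at, lay at 7.29, 7.45 and 6.43 log2 with both drugs, 6.68, 6.89 and 5.19 with decitabine, 4.0, 3.60 and 3.94 with PXD101, 3.89, 3.81 and 3.61 in untreated CP70, and 3.96, 3.65 and 4.16 in A2780. Both drugs and decitabine overlapped, replicate 3 being the lowest of each, and both stood apart from the other 3 groups. ZFP42 rose by 3.29 ± 0.35 with both drugs (SE; adjusted p = 2.69e-05) and by 2.48 ± 0.35 with decitabine (adjusted p = 0.000532).

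Between both drugs and decitabine, ZFP42 differed by 0.81 ± 0.35 (adjusted p = 0.888), and its other 2 probe sets by 0.70 (adjusted p = 0.901) and 0.22 (0.977). The difference of 0.81 was close in size to that of DPPA2 (0.86), but its standard error was 0.35 against 0.11 for DPPA2. TRIML1, the paralog of TRIML2, 27.626 kb away, lay at 4.75 ± 0.47 with both drugs, 4.68 ± 0.21 with decitabine and 4.20 ± 0.15 in untreated CP70 (SD, n = 3 each). Its differences from untreated CP70 were 0.55 ± 0.20 with both drugs (adjusted p = 0.116) and 0.47 with decitabine (0.197). FAT1, a protocadherin-like adhesion molecule, was lower in untreated CP70 than in A2780 by 0.64 (difference -0.64, adjusted p = 0.0127). The ZFP42 promoter window held 23 CG pairs, as many as or more than 76.3% of windows, that of MORC1 held 17 and that of TRIML1 held 0.

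**Figure D4:**
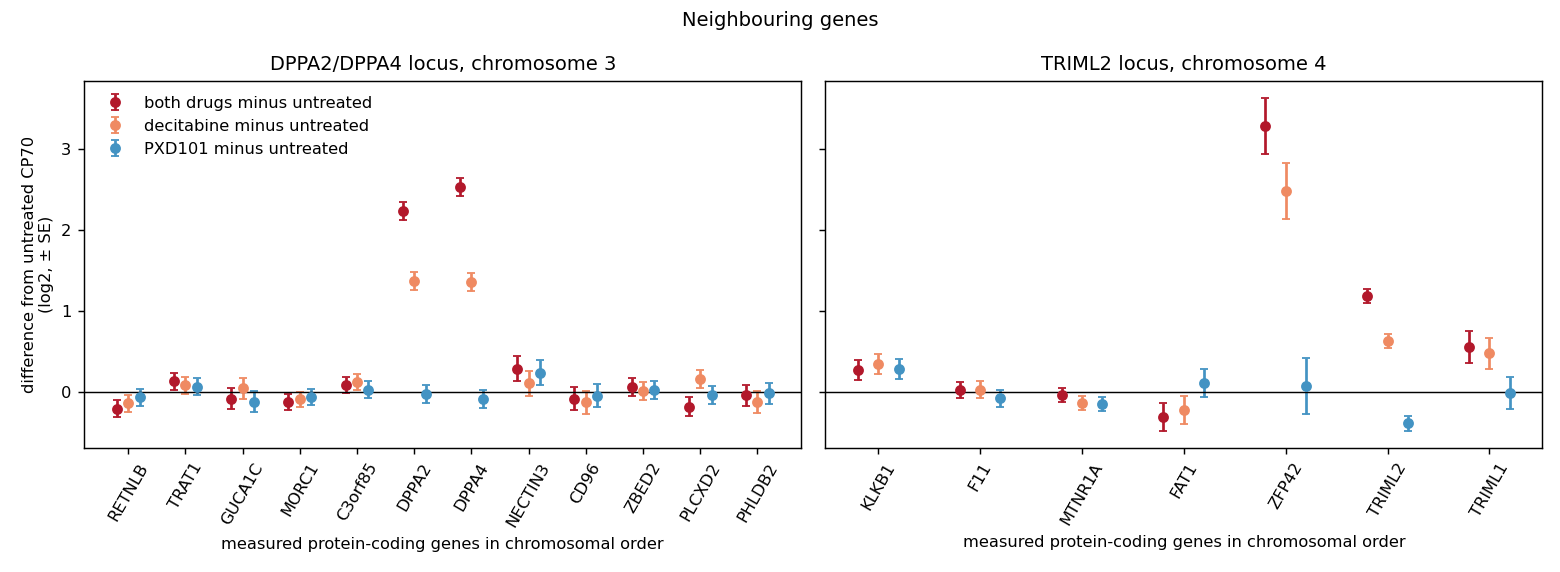
Differences of group means from untreated CP70 (vertical axis, log2, points with standard errors) for both drugs, decitabine and PXD101, for DPPA2, DPPA4, TRIML2 and their measured neighbours, in the order in which they lie on chromosomes 3 and 4. DPPA2, DPPA4 and TRIML2 were chosen for rising, so their height over the neighbours was fixed by the choice. The 10 neighbours of DPPA2 and DPPA4 lie near 0, and TRIML2 stands beside ZFP42, which rose by 3.29 with both drugs.

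Other genes of the programmes in which DPPA2, DPPA4 and TRIML2 are known were counted in lists that leave the 3 genes out. Of 16 measured genes of embryonic genome activation (38 listed), limma called 6 higher and 0 lower both with both drugs (5.52% higher and 3.59% lower over all genes) and with decitabine (4.38% and 2.66%). KHDC1L rose by 2.87 ± 0.29 with both drugs (SE; 7.32-fold, adjusted p = 1.83e-05), CCNA1, a cyclin of the male germline, by 2.61, and MBD3L2 by 1.59. PRAMEF12 was higher by 1.53, KHDC3L, an oocyte protein of the subcortical maternal complex, by 1.48, and ZSCAN4, a zinc finger gene of the earliest embryonic transcription, by 1.47 (adjusted p = 0.0376). With decitabine alone the same 6 genes rose by 2.83, 2.66, 1.87, 1.77, 1.27 and 2.17. Without CP70 replicates 1 and 3, 3 were called with decitabine.

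Between both drugs and decitabine, limma called 0 of these 16 genes (0 at an unadjusted p under 0.05; 0.0101% of all genes were higher and 0% lower), and the list median was -0.06 against -0.01 over all genes. ZSCAN4 lay at 6.19 ± 0.34 with both drugs, 6.89 ± 0.57 with decitabine and 4.72 ± 0.22 in untreated CP70 (SD, n = 3 each), so its mean was lower with both drugs than with decitabine, the other way round from DPPA2. That difference was -0.71 ± 0.40 (SE; adjusted p = 0.937). In untreated CP70 5 of the 16 were lower than in A2780 and 1 was higher, where 15.4% of all genes were higher and 14.5% lower. KHDC1L was at 5.09 in untreated CP70 against 9.80 in A2780, ZSCAN4 at 4.72 against 6.86, MBD3L2 at 5.17 against 7.49 and PRAMEF12 at 5.21 against 7.10. SLC34A2 was also lower (-0.44) and EIF1AX higher (0.31). These 4 genes were thus high in A2780, where the mean of DPPA2 was lowest. DPPA4 (232985_s_at) was at 3.25 in A2780, near its level in the other groups without decitabine. With PXD101 0 of the 16 were called against untreated CP70 (1 lower at an unadjusted p).

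Of 35 measured pluripotency genes (40 listed), 4 were called higher and 0 lower with both drugs (5.52% and 3.59% of all genes), and 4 to 7 were higher when single arrays were left out. They were ZFP42, OOEP, an oocyte protein (0.95), L1TD1, an RNA-binding protein of stem cells (0.92), and LIN28A, an inhibitor of let-7 microRNA processing (0.73, adjusted p = 0.00613). With decitabine 4 were also higher (4.38% of all genes), ZFP42, L1TD1 (0.73), OOEP (0.62) and TLE6 (0.44). The count with decitabine was 1 without CP70 replicate 1, CP70 replicate 3 or decitabine replicate 1, 2 without decitabine replicate 3 and 7 without CP70 replicate 2. The central pluripotency factors NANOG and SOX2 differed by -0.13 (adjusted p = 0.753) and -0.12 (0.732) between both drugs and untreated CP70 on their brightest probe sets, and DPPA5, an RNA-binding protein of the embryo, by -0.10 (0.789). POU5F1 and DPPA3 had probe sets with several symbols only and were not analysed here.

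LIN28A lay at 4.30 with both drugs, 4.07 with decitabine, 3.45 with PXD101, 3.57 in untreated CP70 and 10.84 in A2780, so its level with both drugs stayed far below that of the parent line. Between both drugs and decitabine 0 of the 35 were called (1 higher and 2 lower at an unadjusted p). KLF4, a zinc finger factor, was the 1 gene of the list called with PXD101 (-2.77 ± 0.50, SE; adjusted p = 0.0233). That count was 0 to 5 when single arrays were left out and 0 without CP70 replicates 1 and 3.

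Germline genes known to be silenced by promoter methylation in somatic cells moved in the largest number. That silencing was the criterion of the list, so its counts do not describe germline genes in general. Of 36 measured (39 listed), 19 were higher and 1 (DMC1, a recombinase of meiosis, -0.47) was lower with both drugs, and 19 were higher and 0 lower with decitabine, against the same shares over all genes as above. The list medians were 0.56 and 0.54, against -0.00 and 0.02 over all genes. Between both drugs and decitabine 0 of the 36 were called (3 higher and 1 lower at an unadjusted p), with a median of -0.04. GTSF1 and MAEL, both of the pathway of small RNAs that silence transposons, differed between these groups by 0.06 and 0.10, DAZL, which binds RNA in germ cells, by -0.09, and CTCFL, a relative of CTCF found in testis, by 0.14. HORMAD1, a protein of meiotic chromosome axes, differed by 0.61 (adjusted p = 0.671). That step was larger than the step of TRIML2 (0.56), so a further rise of this size was not particular to the 3 genes. The first 4 genes rose by 3.71 to 5.71 with decitabine alone, more than DPPA2, DPPA4 or TRIML2, and their means moved by at most 0.14 with the addition of PXD101. With PXD101 alone 0 of the 36 were called (1 higher and 3 lower at an unadjusted p), where 3.88% of all genes were higher and 4.03% lower.

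**Figure D5:**
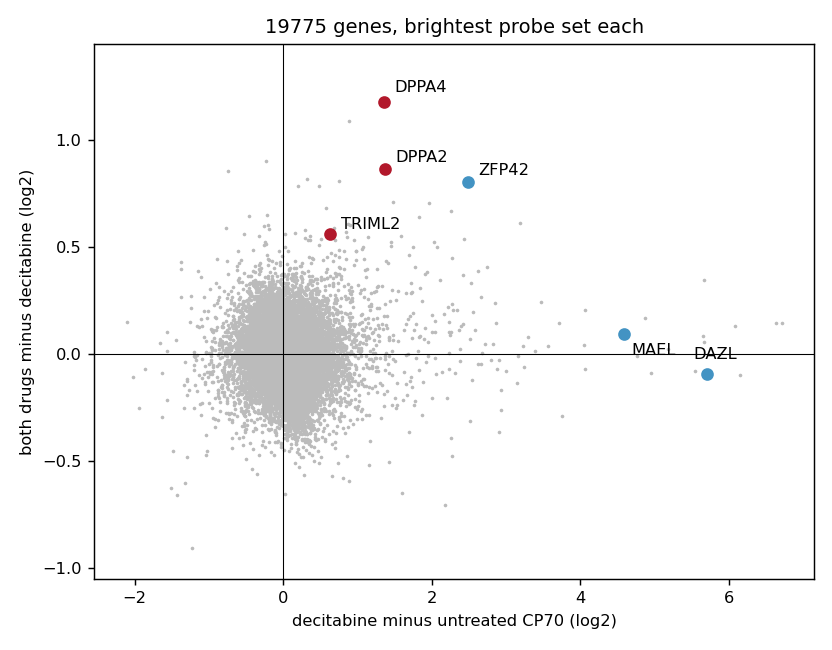
Difference of means between both drugs and decitabine (vertical axis, log2) against the difference between decitabine and untreated CP70 (horizontal axis, log2) for 19775 genes, each by its brightest probe set, with DPPA2, DPPA4 and TRIML2 (red) and ZFP42, MAEL and DAZL (blue) marked. The axes share the decitabine arrays. DPPA4 and DPPA2 lie at 1.18 and 0.86 on the vertical axis, while DAZL and MAEL lie far to the right and near 0.

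Likeness to other genes was measured as Pearson's r over the 15 arrays among 2868 genes whose group means spanned at least 1 log2, as a description, since all arrays share the groups. The 3 genes were chosen for a shared pattern and pass the span through the groups with decitabine, so high values among them were fixed by the choice. DPPA4 (232985_s_at) and TRIML2 correlated at 0.974, DPPA2 and DPPA4 at 0.971 and DPPA2 and TRIML2 at 0.961. The genes most like DPPA2 were DPPA4, GAGE1 (0.971), ARMCX1 (0.971), MAGEB1 (0.968) and TRIM59 (0.967). Those most like DPPA4 were TRIM59 (0.974), TRIML2, DPPA2, DDX4 (0.964) and DCAF4L1 (0.961), and those most like TRIML2 were DPPA4, DDX4 (0.973), DPPA2, SPATA22 (0.961) and TRIM59 (0.960). TRIM59 and DDX4 each appeared for more than 1 of the 3 genes. TRIM59, another tripartite motif gene, had means of 6.26 with both drugs, 5.60 with decitabine, 3.42 with PXD101, 3.34 in untreated CP70 and 3.29 in A2780. DDX4, an RNA helicase that marks germ cells, had means of 4.30 with both drugs, 4.03 with decitabine, 3.29 with PXD101, 3.49 in untreated CP70 and 3.27 in A2780.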

How the data were processed

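RNA from 15 cell line cultures was amplified, biotin-labelled and hybridised to Affymetrix arrays, per the labels' protocols. Values of 54675 probe sets per array were deposited by the authors, and they fit a log2 scale, as judged from their range. R 2.10.1 and affy are named in the submitters' processing notes, and how background correction, normalization and summarization were done was not given in the sources used here. Arrays give no depth, and their number limits the precision.

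The 62 control probe sets were left out. Of the other 54613, 41091 had 1 symbol (41037 updated through Entrez IDs), 1801 several and 11721 none, and genes in lists were represented by the probe set with the highest mean (19775 genes). Groups and replicate numbers came from the sample titles. limma 3.58.1 (lmFit and eBayes, R 4.3.3) was fitted to all 54613 probe sets and 15 arrays with group means, and calls were made at a Benjamini-Hochberg adjusted p under 0.05. The fit was tested on simulated data. Differences are on the log2 scale with SE. The members, lists, named genes and tests were chosen with earlier results of these data known. Named genes were all probe sets of the 3 genes, their measured neighbours, 9 pluripotency and neighbouring genes, up to 5 of the largest called changes of each list, and the 5 genes most alike by correlation. LIN28A, KLF4, TLE6, DMC1, SLC34A2 and EIF1AX are named where a count is small. Promoter windows came from RefSeq tables of GRCh38.p14, which held all 3 genes. Alternatives were single arrays left out, a replicate block, repeated quantile normalization, median centring, fits of only the 6 arrays compared, 1 probe set per gene, a filter on dim probe sets, array weights, rank product (100 permutations, percentage of false positives under 5), the mean of a gene's probe sets and, chosen after seeing the data, leaving out CP70 replicates 1 and 3.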

Additional observations from a re-analysis of the deposited data

How the results depend on the processing

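The differences of DPPA2, DPPA4 (232985_s_at) and TRIML2 between both drugs and decitabine were 0.756 to 0.967, 1.08 to 1.29 and 0.522 to 0.614 when single arrays were left out. The genes were chosen on this contrast and its arrays did not overlap, so leaving out 1 array could not reverse the direction. Repeated quantile normalization, median centring and differences of same-numbered arrays also kept it. Rank product, array weights, the filter on dim probe sets and the fit of only the arrays compared were not tried on it. The mean of all DPPA4 probe sets gave 0.421 for that contrast, 1.01 for both drugs and 0.585 for decitabine against untreated CP70. Without CP70 replicates 1 and 3, a setting chosen after seeing the data that leaves 1 untreated CP70 array assumed to vary like the other groups, DPPA2 with decitabine was at 1.30 and DPPA4 with both drugs at 2.39, TRIML2 was at -0.376 for PXD101 against untreated CP70 (adjusted p = 0.88) and at 0.259 for untreated CP70 against A2780 (0.255), and these contrasts called 0 (2783 at an unadjusted p under 0.05) and 6650 probe sets by limma. That setting called 3 embryonic genes with decitabine and 0 pluripotency genes with PXD101 (1 at an unadjusted p).

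PXD101 against untreated CP70 called 3235 probe sets by limma, and 1342 with the replicate number as a block, 14166 with array weights, 749 by rank product, and 0 in a fit of only its 6 arrays (9976 at an unadjusted p). Leaving out 1 array gave 0 to 10973, with 10973 without CP70 replicate 2 and 0 otherwise (7826 to 10849 at an unadjusted p). In a fit of only the 6 arrays TRIML2 lost its calls for PXD101 against untreated CP70 (-0.391, adjusted p = 0.208) and for untreated CP70 against A2780 (0.274, 0.0864). Rank product called neither (-0.391 and 0.274, percentage of false positives as a fraction 0.357 and 0.896), nor DPPA2 in untreated CP70 (0.47, 0.444) or PXD101-treated CP70 (0.439, 0.424) against A2780, and it called 2438 and 2647 probe sets in these contrasts. The cause of these changes was not tested. Pluripotency genes called with PXD101 numbered 3 with 1 probe set per gene and 4 with the filter on dim probe sets.

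With single arrays left out, the ranges for PXD101 against untreated CP70 were -0.436 to -0.330 for TRIML2, -0.0777 to 0.0050 for DPPA2 and -0.0497 to 0.0777 for DPPA4 241199_x_at. For untreated CP70 against A2780 they were 0.228 to 0.313 for TRIML2, -0.0291 to 0.0973 for 232985_s_at and -0.0388 to 0.0696 for 241199_x_at, and for PXD101-treated CP70 against A2780 they were 0.347 to 0.522 for DPPA2, -0.0981 to 0.0115 for 232985_s_at and -0.0181 to 0.109 for 241199_x_at. The sign changes were all of uncalled differences. Called pluripotency genes numbered 0 to 5 with PXD101, 1 to 7 with decitabine and 4 to 7 with both drugs. The replicate numbers did not pair the samples (correlations of same-numbered deviations of -0.28, -0.25 and 0.10 for PXD101 and untreated CP70). With the replicate block TRIML2 was at an adjusted p of 0.0448 for PXD101 and DPPA2 at 0.00636 for untreated CP70 against A2780, and no call of the 5 probe sets changed.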
